A study of Homo sapiens with 4 samples.

Results

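Cytosolic chaperones are the proteins that fold other proteins in the cytosol and keep them from aggregating. A list of 44 such genes was followed, covering HSP70 and HSP110, HSP90 and its cochaperones, small heat shock proteins, J-domain proteins, BAG proteins, the heat shock factors, the TRiC chaperonin and prefoldin. Members were the probe sets annotated to a single gene of this list, which gave 79 of the 54675 probe sets on the array. They stand for 37 of the 44 genes, and all 37 passed the filter on dim probe sets and were tested. HSPA1A, HSPA1B, HSPA8, TCP1 and PFDN6 were measured only by probe sets annotated to several genes and were not analysed here. AHSA1 and HSF2 had no probe set in the annotation used and were not analysed here either. HSPB11 was matched under its current RefSeq symbol, IFT25.

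HSP70 binds short hydrophobic stretches of unfolded protein in a cycle driven by ATP. J-domain proteins deliver the client and trigger hydrolysis, while HSP110 and BAG proteins release the nucleotide. STIP1 passes clients from HSP70 to HSP90, which matures kinases and steroid receptors with further cochaperones, and prefoldin hands unfolded actin and tubulin to TRiC, a closed double ring that encloses its client. Heat shock factor 1 raises many of these genes when unfolded protein accumulates, and cancer cells commonly hold them at a high level.

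Total RNA was measured on 4 Affymetrix arrays, whose MAS5 signal is a linear brightness per probe set, from HCT116, a long-established line of human colon cancer cells, of which HCT116 wt and HCT116 wt/GFP were used. Both were cultured as spheroids, which are rounded multicellular aggregates, and as a monolayer on a flat surface, with 1 array for each line and culture. The groups are thus spheroids (2 arrays) and monolayers (2 arrays), paired by cell line. The labels do not say whether the lines were cultured separately, so p-values cover only the spread between these arrays. That spread was estimated mainly from all genes together, not from the arrays of each gene alone. A bulk array cannot tell fewer cells of a type from less RNA per cell.

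Of 10 colon epithelial markers, 8 exceeded the filter (a mean log2 level above 5.48), and their summed signal was 113614 to 115174 in spheroids and 86516 to 104855 in monolayers, while CDX1 and CDH17 did not exceed it. Fibroblast markers, with 3 of 6 above the filter, summed to 2434 to 4059 in spheroids and 443 to 472 in monolayers, and COL1A1 made most of that difference (log2 change 3.14 ± 0.15). Leukocyte markers, with 3 of 6 above the filter and PTPRC not among them, summed to 308 to 369 in spheroids and 296 to 403 in monolayers. Endothelial markers, with 1 of 5 above it, summed to 261 to 301 in spheroids and 146 to 183 in monolayers. The signal ratio of the 3' to the 5' probe sets of ACTB, a measure of RNA integrity and labelling, was 1.76 and 1.73 in spheroids and 1.32 and 1.30 in monolayers. The same ratio of GAPDH was 0.868 and 0.951 in spheroids and 0.897 and 0.882 in monolayers. The highest signal of any probe set was 68036 and 67033 in spheroids, against 59323 in the wt and 42706 in the wt/GFP monolayer. The part of these differences in the results below was not tested.

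In spheroids, 22 of the 37 chaperone genes fell and 2 rose, and 13 did not pass the test. Changes are differences of log2(signal + 14.0), spheroids minus monolayer, fitted over both lines on the brightest probe set of each gene. A gene was called when its adjusted p in limma, over all 14337 genes tested, was under 0.05. By that rule 18.6% of all genes were called lower, 30.7% higher and 49.2% in either direction, whereas 59.5% of the chaperone genes were called lower and 5.41% higher. The median log2 change of the chaperone genes was -0.46, against 0.23 for all genes. Both spheroid arrays lay below both monolayer arrays for 29 of the 37 genes, against 26.5% of all genes, and above them for 3, against 47.1% of all genes. The chaperones are bright genes, with 23 of the 37 among the 1434 brightest genes tested. Those 1434 genes had a median change of -0.14, with 40.6% called lower and 23.6% higher. The median was -0.46 in wt and -0.43 in wt/GFP, and 33 of the 37 genes had changes of the same sign in both lines. Without a trend of variance on level in limma, 12 of the 22 falls were called.

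**Figure D1:**
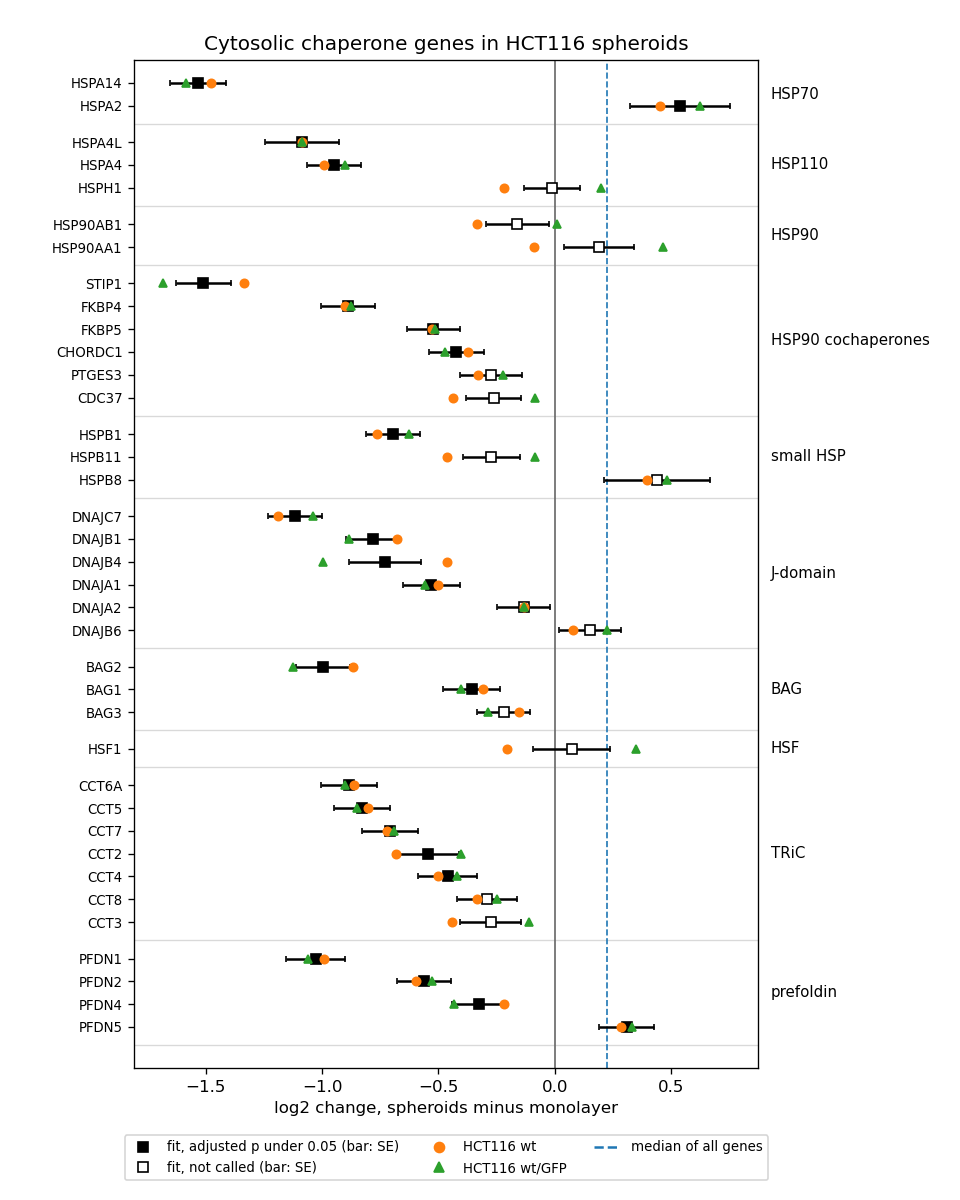
Log2 change of each tested chaperone gene, spheroids minus monolayer, by group. Squares give the fit with its SE (filled where called), circles HCT116 wt, triangles HCT116 wt/GFP, and the dashed line the median of all genes. Most genes lie left of 0 in both lines, while HSPA2, HSPB8, DNAJB6 and PFDN5 lie right of it in both on the deposited scale.

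How the arrays are scaled sets where 0 lies. On the signals as deposited, genes in general had a median change of 0.23. Quantile normalization put it at 0.02, centring on array medians at -0.17 and hybridisation-control scaling, with 18 control probe sets, at -0.37. Over the same scalings the median of the chaperone genes was -0.46, -0.40, -0.85 and -1.05, below that of all genes each time. Median centring and hybridisation-control scaling lower the change of every gene by the same amount. The distance between the 2 medians was thus fixed under both, and only quantile normalization could change it. A total of 21 of the 22 genes that fell were called lower under all 4 scalings, PFDN4 being the exception, whereas neither of the 2 genes that rose was called higher under all 4. A common downward shift could hardly remove a fall or keep a small rise. Median centring and hybridisation-control scaling therefore do not test these calls. Quantile normalization, which can, removed those of PFDN4 and HSPA2. Of the 13 genes that did not pass on the deposited scale, 5 were called lower under quantile normalization (CCT3, CCT8, HSP90AA1, HSP90AB1 and PTGES3). Median centring and hybridisation-control scaling called 9 lower each, among them BAG3, CCT3, CCT8, CDC37, DNAJA2, HSP90AB1, HSPB11 and PTGES3 under both, HSPH1 under the first and HSP90AA1 under the second. None of the 13 was called higher under these scalings in limma. Over all 14337 genes, 2663 were called lower as deposited, 3009 under quantile normalization, 4645 under median centring and 3755 under hybridisation-control scaling. Relative to the median of all genes, the chaperone median stood at -0.69 with the deposited scaling.

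**Figure D2:**
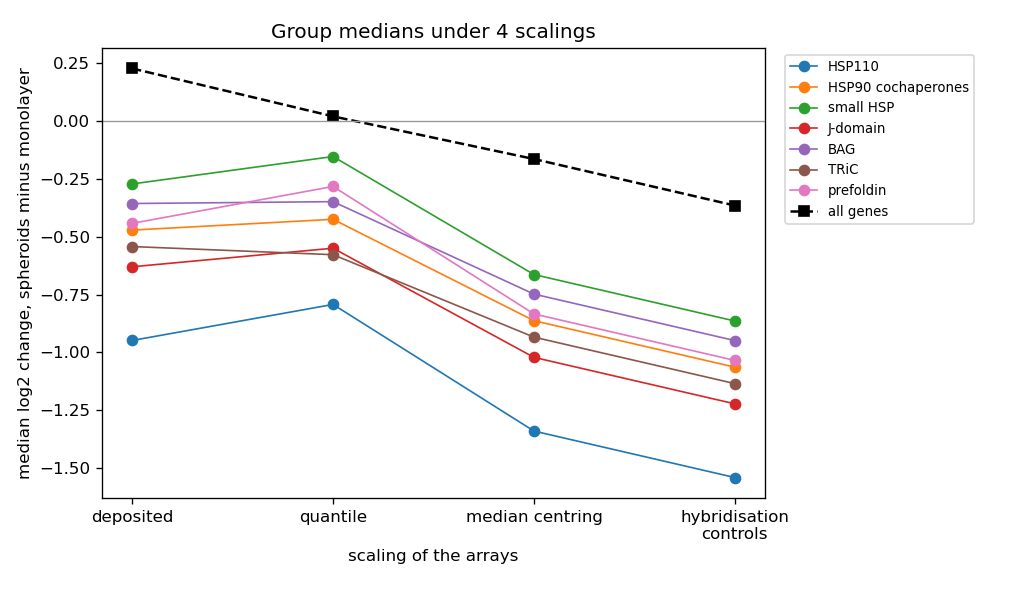
Median log2 change, spheroids minus monolayer, of each chaperone group with more than 2 tested genes (circles) and of all genes (squares, dashed) under 4 scalings of the arrays. Every group plotted lies below the median of all genes under each scaling. Only quantile normalization can change that distance, since the other scalings shift all genes alike.

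TRiC, the chaperonin that folds actin, tubulin and other proteins of complex topology, was lower in spheroids for most of its subunits. Of 7 subunits tested, 5 fell and 2 did not pass the test, and their changes had a median of -0.54, which lay at -0.77 from that of all genes. CCT6A, the zeta subunit, had signals of 9992 and 8943 in spheroids, against 18207 and 16720.5 in monolayers (wt and then wt/GFP in each pair, here and below). It fell by 0.88 ± 0.12 log2 units (SE, 2 arrays per condition), which made it 1.84-fold lower in spheroids (adjusted p = 4.57e-07). CCT5, the epsilon subunit, had signals of 11458 and 9453 in spheroids, against 20021 and 17049 in monolayers. It fell by 0.83 ± 0.12 (adjusted p = 1.51e-06), and CCT7, the eta subunit, fell by 0.71 ± 0.12 with signals of 10885 and 9317 in spheroids, against 17978 and 15063 in monolayers. On these probe sets the arrays of the 3 subunits did not overlap between the cultures. Their change in wt differed from that in wt/GFP by less than 0.1. A dimmer probe set of CCT5 had signals of 411 and 430 in spheroids, against 483 and 379 in monolayers. Its log2 change, tested alone, was -0.03 ± 0.19 and was not called.

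CCT2, the beta subunit, had signals of 20189 and 19428 in spheroids, against 32375 and 25732 in monolayers, and fell by 0.54 ± 0.13. A further probe set of CCT2 had signals of 8461 and 7595 in spheroids, against 17831 and 14237 in monolayers, and fell by 0.99 ± 0.12 when every probe set was tested alone. CCT4, the delta subunit, fell by 0.46 ± 0.13 with signals of 18252 and 15911 in spheroids, against 25829 and 21307 in monolayers. CCT3 and CCT8, the gamma and theta subunits, had log2 changes of -0.28 ± 0.13 and -0.29 ± 0.13 that did not pass (adjusted p = 0.0836 and 0.0607), although both spheroid arrays lay below both monolayer arrays for each. CCT3 had signals of 19825 and 21172 in spheroids, against 26925 and 22862 in monolayers. CCT8 had signals of 23050.1 and 19494 in spheroids, against 29110.1 and 23165 in monolayers. Under each of the 3 other scalings all 7 subunits were called lower. Median centring and hybridisation-control scaling shift every gene downward alike, so of these only quantile normalization tests the calls. Lower calls over all 14337 genes rose as well, from 2663 to 3009 (quantile normalization), 4645 (median centring) and 3755 (hybridisation controls). The calls of CCT2 and CCT4 were lost without the wt or the wt/GFP spheroid array, which left 3 called subunits, and that of CCT4 was also lost without the wt monolayer array (adjusted p between 0.0657 and 0.253 for the 2 genes). Without the wt/GFP monolayer array all 7 were called, and without the variance trend 3 were. The mean of its probe sets left CCT4 at -0.14 (adjusted p = 0.307).

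**Figure D3:**
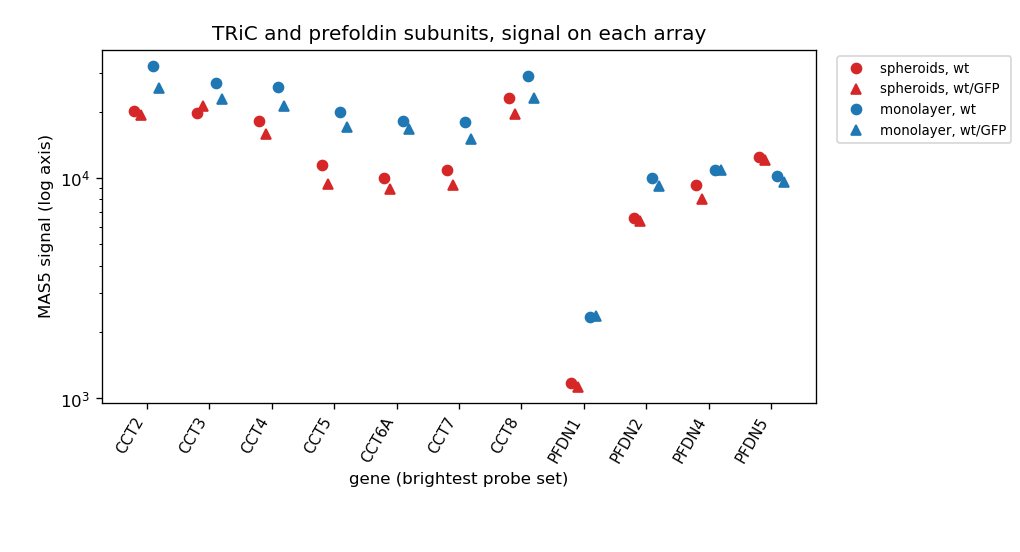
MAS5 signal of each TRiC and prefoldin subunit on each array, on a log axis, with spheroids (red) left of monolayers (blue), circles for wt and triangles for wt/GFP. The TRiC subunits are lower in spheroids on both arrays, and PFDN5 is the subunit whose spheroid arrays both lie higher on the deposited scale.

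Prefoldin, the jellyfish-shaped holder that carries nascent actin and tubulin to TRiC, split by subunit. Of 4 subunits tested, 3 fell and 1 rose, with a median log2 change of -0.44, or -0.67 relative to all genes. PFDN1, a beta-type subunit, had signals of 1172 and 1129 in spheroids, against 2346 and 2373 in monolayers. It fell by 1.03 ± 0.13, or 2.04-fold (adjusted p = 7.79e-08), and the groups did not overlap. PFDN2, also of the beta type, had signals of 6619 and 6386 in spheroids, against 10009 and 9212 in monolayers, and fell by 0.56 ± 0.12 (adjusted p = 0.000172). Dimmer probe sets of PFDN4, tested alone, had log2 changes of -0.02 ± 0.17 and -0.37 ± 0.42. Neither was called, and the arrays of both overlapped. The brightest probe set of PFDN4 had signals of 9340.1 and 8046 in spheroids, against 10858 and 10856 in monolayers, and fell by 0.32 ± 0.12 (adjusted p = 0.0243). Quantile normalization removed its call (adjusted p = 0.163), as did fits without the cell line block (adjusted p = 0.0562) and without either monolayer array or the wt/GFP spheroid array (adjusted p between 0.0997 and 0.275).

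PFDN5, an alpha-type subunit also known for binding MYC, went the other way, with signals of 12451 and 12078 in spheroids, against 10216 and 9600.1 in monolayers. It rose by 0.31 ± 0.12, or 1.24-fold (adjusted p = 0.0315), which lay 0.082 above the median of all genes. Its other probe set had a log2 change of 0.28 ± 0.12 (adjusted p = 0.0651 among probe sets tested alone). The rise of PFDN5 was also called after quantile normalization (log2 change 0.45), but had values of -0.083 under median centring and -0.28 under hybridisation-control scaling. It was not called without the cell line block (adjusted p = 0.0606) or without any single array (adjusted p between 0.0584 and 0.164). VBP1, the alpha-type partner of PFDN5, is outside the list and was named after its value was seen: it fell by 0.72 ± 0.12.

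Among the HSP70 proteins, the 2 genes tested moved in opposite directions. HSPA14, a ribosome-bound HSP70 that acts on chains as they emerge from the ribosome, showed one of the largest falls of the 37 genes beside STIP1, with signals of 1470.3 and 1243 in spheroids, against 4120.2 and 3762 in monolayers. It fell by 1.53 ± 0.12, or 2.89-fold (adjusted p = 1.80e-11), and its other 2 probe sets fell by 0.59 ± 0.15 and fell by 1.25 ± 0.16. DNAJC2, its J-domain partner at the ribosome, belongs to a further list of cytosolic cofactors and fell by 1.03 ± 0.11. HSPA2, an HSP70 best known from the testis, was dim, with signals of 312 and 467 in spheroids, against 224 and 298 in monolayers. It rose by 0.54 ± 0.21 (adjusted p = 0.0382), with 0.23 and 0.15 under quantile normalization and median centring and -0.053 under hybridisation-control scaling, none of them called. The call was also lost without the cell line block (adjusted p = 0.0879) and without the wt monolayer or wt/GFP spheroid array (adjusted p = 0.368 and 0.457).

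Of the 3 HSP110 genes, which encode nucleotide exchange factors of HSP70 and drive its use in disaggregation, 2 fell and 1 did not pass, with a median of -0.95. HSPA4 had signals of 4338 and 4142 in spheroids, against 8652 and 7759.8 in monolayers. It fell by 0.95 ± 0.11, or 1.93-fold (adjusted p = 6.50e-08), and 3 of its 4 probe sets were called lower. The fourth, the only one not shared between transcripts, had signals of 809 and 943 in spheroids, against 876 and 1023 in monolayers, with a log2 change of -0.11 ± 0.15 (adjusted p = 0.57). HSPA4L, its close relative, fell by 1.09 ± 0.16 with signals of 442 and 470.2 in spheroids, against 955 and 1013 in monolayers. The other probe set of HSPA4L, of similar brightness, had signals of 458 and 496 in spheroids, against 558 and 586 in monolayers, with a log2 change of -0.25 ± 0.17 (adjusted p = 0.252). The size of the fall thus differed between probe sets of both genes. HSPH1, the heat-inducible member of the family, had signals of 7292 and 8688 in spheroids, against 8497 and 7579.6 in monolayers. Its log2 change was -0.01 ± 0.12 (adjusted p = 0.948), the cultures overlapped, and the lines moved in opposite directions. HSPH1 stood at 0.17 under quantile normalization (adjusted p = 0.239), whereas median centring put it at -0.40 (adjusted p = 0.00728) and so called all 3 HSP110 genes lower. One of its other probe sets, with signals of 1558 and 2509 in spheroids, against 3049.9 and 2393 in monolayers, fell by 0.45 ± 0.16, although its arrays overlapped too.

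**Figure D4:**
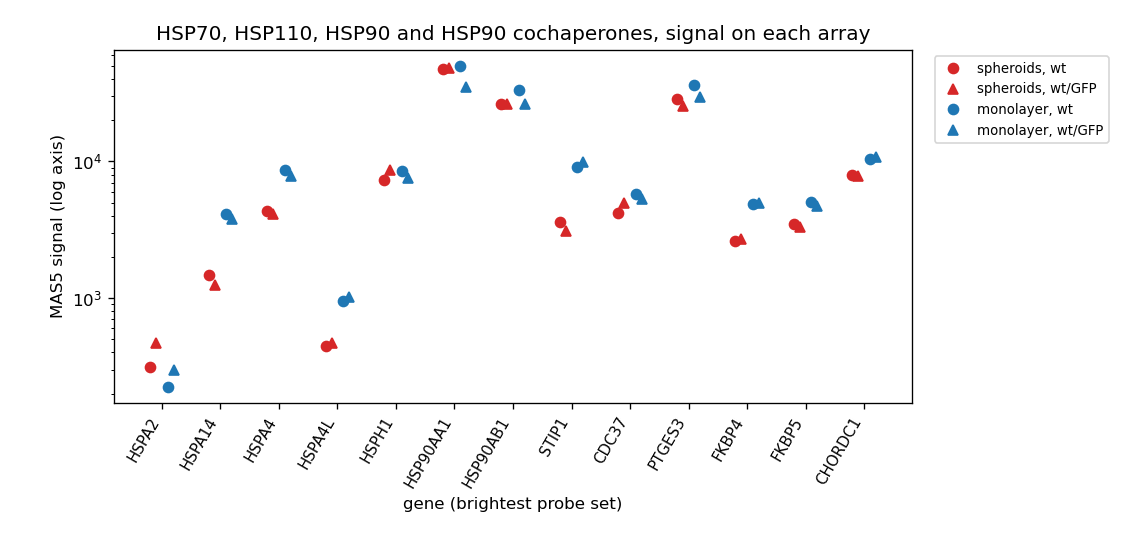
MAS5 signal on each array, on a log axis, for the HSP70, HSP110 and HSP90 genes and the HSP90 cochaperones, with spheroids (red) left of monolayers (blue), circles for wt and triangles for wt/GFP. HSPA14, HSPA4, HSPA4L, STIP1 and FKBP4 are well separated, while HSPH1, HSP90AA1 and HSP90AB1 overlap.

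On the deposited scale the 2 cytosolic HSP90 genes did not pass the test in limma, also at an unadjusted p under 0.05 (0 of 2), but most of their cochaperones fell. HSP90AA1, the inducible isoform, had signals of 47103 and 48480.1 in spheroids, against 50076 and 35144 in monolayers, and its log2 change was 0.19 ± 0.15 (adjusted p = 0.319). The other 3 arrays lay close together, and the wt/GFP monolayer array, which had the lowest maximum signal, was lower. After quantile normalization HSP90AA1 had a value of -0.20 and was called lower (adjusted p = 0.0333), likewise under hybridisation-control scaling (-0.40, adjusted p = 0.0238). Without the wt monolayer array it was called higher instead, at 0.44 (adjusted p = 0.00261). Of its 4 probe sets, the dimmest, with signals of 24088 and 22592 in spheroids, against 34218 and 28295 in monolayers, was the only one called when tested alone, and it fell by 0.42 ± 0.13. HSP90AB1, the constitutive isoform, had signals of 26193 and 26450 in spheroids, against 33015 and 26263 in monolayers, with a log2 change of -0.16 ± 0.14 (adjusted p = 0.342). Its other 2 probe sets fell by 0.61 ± 0.13 and fell by 0.64 ± 0.14, and the gene was called lower under all 3 other scalings. Of these only quantile normalization tests the call, since the other 2 shift every gene downward alike. HSP90AB1 stood at -0.26 under quantile normalization (adjusted p = 0.0104). It stood at -0.55 under median centring (adjusted p = 0.00112) and at -0.75 under hybridisation-control scaling (adjusted p = 0.000216). It was also called lower with its probe sets averaged (-0.47, adjusted p = 0.0165) and without the wt/GFP monolayer array (-0.33, adjusted p = 0.0362). The direction of HSP90AA1 thus differed between scalings and between arrays left out.

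Of 6 HSP90 cochaperones tested, 4 fell and 2 did not pass, with a median of -0.47, or -0.70 relative to all genes. STIP1, the adaptor that bridges HSP70 and HSP90, had signals of 3609.5 and 3072 in spheroids, against 9139 and 9908 in monolayers. It fell by 1.51 ± 0.12, or 2.85-fold (adjusted p = 2.05e-11), and its second probe set, with signals of 2579 and 2551 in spheroids, against 5059 and 5223 in monolayers, was called lower too. FKBP4, an immunophilin that moves steroid receptors to the nucleus, had signals of 2613 and 2686 in spheroids, against 4894 and 4945 in monolayers. It fell by 0.89 ± 0.11, or 1.85-fold (adjusted p = 2.08e-07), and all 4 of its probe sets were called lower. FKBP5, an immunophilin that restrains steroid receptors, fell by 0.52 ± 0.11 with signals of 3473 and 3319 in spheroids, against 5019 and 4745 in monolayers. CHORDC1, an HSP90 partner with zinc-binding domains, fell by 0.42 ± 0.12 with signals of 7970.4 and 7787 in spheroids, against 10326 and 10808 in monolayers.

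CDC37, which brings kinases to HSP90, had signals of 4221 and 4984 in spheroids, against 5724 and 5294 in monolayers, with a log2 change of -0.26 ± 0.12 (adjusted p = 0.0684). It was called lower under median centring (-0.65), hybridisation-control scaling (-0.85) and the filter at the 60th percentile (adjusted p = 0.037), and without the wt/GFP spheroid array (adjusted p = 0.0265), but not under quantile normalization (-0.11, adjusted p = 0.476). PTGES3, the p23 cochaperone that holds HSP90 closed, had signals of 28684 and 25235 in spheroids, against 36054 and 29446 in monolayers, with a log2 change of -0.28 ± 0.13 (adjusted p = 0.0871). It was called lower under quantile normalization, at -0.45 (adjusted p = 0.000124). Median centring (-0.67, adjusted p = 0.000116) and hybridisation-control scaling (-0.87) called it lower too. Those 2 scalings shift every gene downward alike and do not test the call. The calls without shared probe sets (adjusted p = 0.0342) and without the wt/GFP monolayer array (-0.42, adjusted p = 0.0075) were lower too. For both genes the 2 spheroid arrays lay below the 2 monolayer arrays.

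Of 6 J-domain proteins, the partners that load clients onto HSP70, 4 fell and 2 did not pass, with a median of -0.63, or -0.86 relative to all genes. DNAJB1, the main heat-inducible J-domain protein, had signals of 2817 and 2673 in spheroids, against 4509 and 4945 in monolayers. It fell by 0.78 ± 0.12, or 1.72-fold (adjusted p = 2.21e-06), and its second probe set fell by 0.93 ± 0.13. DNAJA1, a farnesylated J-domain protein, fell by 0.53 ± 0.12 with signals of 12972 and 12027 in spheroids, against 18378 and 17723 in monolayers. Without the wt/GFP spheroid array its call was lost (adjusted p = 0.0703). DNAJB4, a close relative of DNAJB1, fell by 0.73 ± 0.15 with signals of 786 and 606 in spheroids, against 1091 and 1223 in monolayers.

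DNAJC7, which binds both HSP70 and HSP90, had signals of 2401 and 2554 in spheroids, against 5501 and 5258 in monolayers, and fell by 1.11 ± 0.12, or 2.17-fold (adjusted p = 4.33e-09). Its 2 other probe sets were dim and higher in spheroids, and the first had signals of 98.7 and 75.7 in spheroids, against 53.7 and 54.8 in monolayers. The second, with signals of 91.9 and 79.7 in spheroids, against 31.5 and 14.3 in monolayers, rose by 1.47 ± 0.53 when tested alone, and the mean over all 3 probe sets gave a log2 change of 0.31. DNAJA2 had signals of 5594 and 5738 in spheroids, against 6132 and 6299 in monolayers, with a log2 change of -0.13 ± 0.11 (adjusted p = 0.354). DNAJB6, a suppressor of polyglutamine aggregation, had signals of 1071 and 1476 in spheroids, against 1012 and 1263 in monolayers, with a log2 change of 0.15 ± 0.13 (adjusted p = 0.373).

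Of 3 genes named as small heat shock proteins, 1 fell and 2 did not pass. HSPB1 and HSPB8 encode holders that bind unfolding proteins without ATP. HSPB1, the abundant small heat shock protein of epithelial tumours, had signals of 6741 and 7233 in spheroids, against 11462 and 11163 in monolayers, and fell by 0.69 ± 0.12, or 1.62-fold (adjusted p = 1.27e-05). HSPB8, which works with BAG3 in selective autophagy, had signals of 292 and 350.1 in spheroids, against 219 and 247 in monolayers. Its log2 change was 0.44 ± 0.23 (adjusted p = 0.113), with both spheroid arrays above both monolayer arrays, and -0.15 under hybridisation-control scaling. HSPB11, better known as the intraflagellar transport subunit IFT25, had signals of 9998 and 10823 in spheroids, against 13772 and 11474 in monolayers, with a log2 change of -0.27 ± 0.12 (adjusted p = 0.0688). It was called lower without the wt/GFP monolayer array. Its 2 other probe sets were called in opposite directions: one fell by 0.35 ± 0.13, and a dim one with signals of 165 and 128 in spheroids, against 38.0 and 39.7 in monolayers, rose by 1.60 ± 0.40.

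Of 3 BAG proteins, which release nucleotide from HSP70, 2 fell and 1 did not pass. BAG2, which also restrains the ubiquitin ligase STUB1, had signals of 3152 and 2685 in spheroids, against 5755 and 5874 in monolayers. It fell by 0.995 ± 0.117, or 1.99-fold (adjusted p = 4.07e-08), while a dim probe set with signals of 167 and 157 in spheroids, against 81.7 and 84.7 in monolayers, rose by 0.86 ± 0.33. BAG1, which couples HSP70 to the proteasome, fell by 0.36 ± 0.12 with signals of 1703 and 1556 in spheroids, against 2113 and 2065 in monolayers. A second probe set of BAG1 fell by 0.43 ± 0.14, but the third, with signals of 1114 and 954 in spheroids, against 467 and 543 in monolayers, rose by 1.01 ± 0.16. The mean over the 3 BAG1 probe sets had a log2 change of 0.077, neither BAG1 nor BAG2 was called when probe sets were averaged, and the call of BAG1 was lost without either monolayer array (adjusted p = 0.196 and 0.149). BAG3, the stress-inducible member, had signals of 4308 and 4481 in spheroids, against 4793 and 5467 in monolayers, with a log2 change of -0.22 ± 0.11 (adjusted p = 0.115). HSF1, the heat shock factor itself, had signals of 603 and 776 in spheroids, against 697 and 607 in monolayers, overlapping between cultures, with a log2 change of 0.07 ± 0.17 (adjusted p = 0.756).

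**Figure D5:**
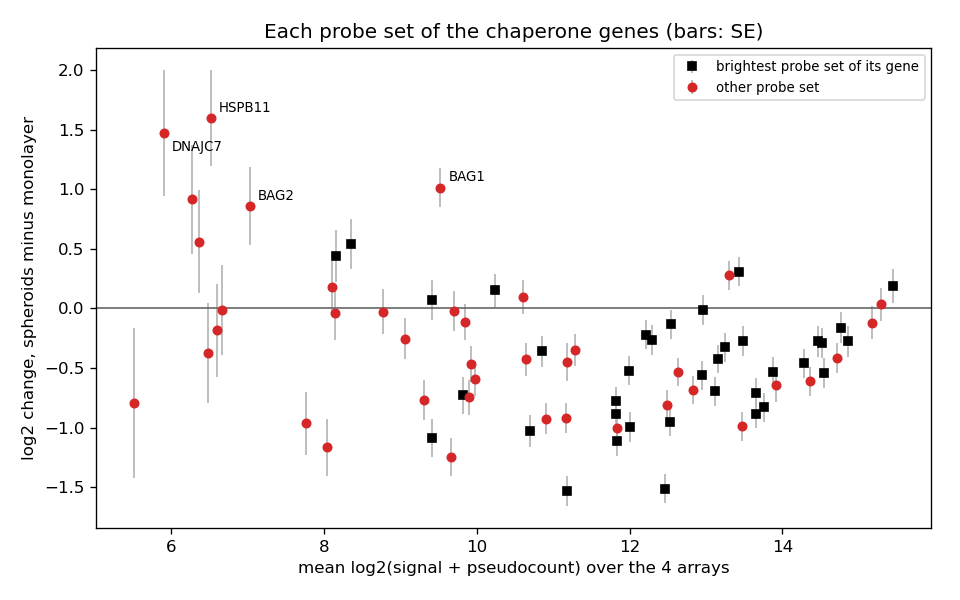
Log2 change, spheroids minus monolayer, of each tested probe set of the chaperone genes against its mean log2 level over the 4 arrays, with SE bars. Black squares are the brightest probe set of each gene and red circles the others. The 4 labelled probe sets rose although the brightest one of the same gene lay below 0.

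Across the 77 member probe sets tested alone, 42 were called lower and 6 higher, against 16.1% lower, 26.6% higher and 42.8% in either direction among the 27023 probe sets tested. More than 1 probe set was tested for 26 of the 37 genes. For 4 of these, BAG1, BAG2, DNAJC7 and HSPB11, probe sets were called in opposite directions, and each time the one that rose was dimmer than the one used for the gene. Whether these probe sets detect other transcripts of the gene was not tested.

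Heat shock factor binds the heat shock element, inverted repeats of the letters GAA, and many chaperone promoters are known for it. The 250 bases before each RefSeq transcription start (GRCh38.p14) were searched for a form with 3 units, GAANNTTCNNGAA or TTCNNGAANNTTC, each the reverse complement of the other. A form with 2 units, GAANNTTC or TTCNNGAA, each its own reverse complement and contained in the longer form, was searched as well. The form with 3 units was found before a start of 5 of the 39 chaperone genes matched to the promoter table (12.8%), against 0.557% of 27305 genes. The form with 2 units was found for 17 of the 39 (43.6%), against 14.0% of all genes. The windows below are shown because they hold these letters in tested genes that differed in their change, with the matched letters in capitals, read 5′ to 3′ on the strand of the gene.
CHORDC1: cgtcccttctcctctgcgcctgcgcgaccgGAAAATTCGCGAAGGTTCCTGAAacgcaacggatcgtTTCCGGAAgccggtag
DNAJB6: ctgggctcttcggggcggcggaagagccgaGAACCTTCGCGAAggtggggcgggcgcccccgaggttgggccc
HSP90AA1: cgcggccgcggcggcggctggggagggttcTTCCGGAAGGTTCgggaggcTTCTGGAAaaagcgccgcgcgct
DNAJB1: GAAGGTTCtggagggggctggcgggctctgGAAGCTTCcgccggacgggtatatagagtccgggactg
HSPB1: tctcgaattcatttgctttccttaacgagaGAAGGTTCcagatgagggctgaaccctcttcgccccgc

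The window of CHORDC1 (chr11:90223057-90223139, minus strand) holds an unbroken run of 23 matched bases, from 60 to 38 bases before its start. That of DNAJB6 (chr7:157336843-157336915, plus strand) holds 13, from 131 to 119 bases before it. HSP90AA1 (chr14:102087090-102087162, minus strand) has its run of 13 from 88 to 76 bases before the inner of its 2 listed starts. DNAJB1 (chr19:14518407-14518474, minus strand) and HSPB1 (chr7:76302461-76302528, plus strand) hold the form with 2 units only. The DNAJB1 window lies before a start that is not the outermost of its 3 listed starts. The fifth gene with 3 units besides CHORDC1, DNAJB6, HSP90AA1 and HSPA8 was HSP90AB1. It has TTCTGGAAGCTTC from 112 to 100 bases before a start that is not the outermost of its 3 listed starts.

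The 4 tested genes with the form of 3 units had log2 changes of 0.19 (HSP90AA1), -0.16 (HSP90AB1), -0.42 (CHORDC1) and 0.15 (DNAJB6). Their median was -0.0051, and 1 of 4 was called lower. The 28 other tested genes with a listed promoter had a median of -0.49, with 17 called lower. The counts moved with the scaling, since quantile normalization called 3 of the 4 lower (median -0.23), against 19 of the 28 (median -0.43). Hybridisation-control scaling called 3 of the 4 lower (median -0.60), against 24 of the 28 (median -1.08), and median centring called 2 of the 4 (median -0.40), against 25 of the 28 (median -0.88). For the form with 2 units the median was -0.54, with 8 of 12 genes called lower, where it was found, and -0.31, with 10 of 20, where it was not. These are descriptions of few genes, and a match of letters is not a binding site. A gene without a match can still have an element that an exact search of 250 bases misses.

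The chaperone network beyond the list was followed through 5 further lists, which were written with earlier results of these data known. Of all 14337 genes, 18.6% were called lower and 30.7% higher, with a median change of 0.23. Of 19 other cytosolic cofactors tested, 7 fell, 3 rose and 9 did not pass, with a median of -0.10, or -0.33 relative to all genes. DNAJC9, a J-domain protein that handles histones, fell by 1.48 ± 0.11, and NUDC, an HSP90 cofactor of dynein, fell by 1.10 ± 0.12. PPP5C, the phosphatase that docks on HSP90, fell by 0.98 ± 0.17 with signals of 373 and 517 in spheroids, against 874 and 886 in monolayers.

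Of 11 TRiC and prefoldin partners, 5 fell, 2 rose and 4 did not pass, with a median of -0.21, or -0.44 relative to all genes. RUVBL2, an ATPase of the prefoldin-like R2TP complex, fell by 0.89 ± 0.12, and PDRG1, a subunit of the prefoldin-like module, fell by 0.80 ± 0.13. PDCL, a phosducin-like protein that works with TRiC on G protein subunits, rose by 0.99 ± 0.18 with signals of 991 and 657 in spheroids, against 387 and 409 in monolayers. CCT6B, a testis isoform of the zeta subunit, was dim, with signals of 286 and 318 in spheroids, against 84.6 and 161 in monolayers, and rose by 1.27 ± 0.28.

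Of 9 genes whose proteins TRiC folds, 7 fell and 2 did not pass, with a median of -0.70, or -0.93 relative to all genes. CDC20, the mitotic activator that needs TRiC to fold, fell by 2.40 ± 0.11. Of the beta-tubulins, TUBB fell by 1.58 ± 0.12, TUBB4B fell by 1.34 ± 0.12 and TUBB6 fell by 1.22 ± 0.12. TUBB had signals of 10402 and 10057 in spheroids, against 32129.9 and 29288 in monolayers.

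The chaperones of other compartments were set beside those of the cytosol. Of 12 mitochondrial chaperones and proteases, 8 fell and 4 did not pass, with a median of -0.51, or -0.74 relative to all genes. HSPE1, the lid of the mitochondrial chaperonin, fell by 0.71 ± 0.13. It had signals of 17822 and 18329 in spheroids, against 32202 and 26974 in monolayers. HSPD1, the partner of HSPE1 in that chaperonin, was named after its value was seen. Its log2 change of 0.08 ± 0.15 did not pass in limma (adjusted p = 0.704), and its arrays overlapped between the cultures. LONP1, a matrix protease, fell by 0.63 ± 0.13, and GRPEL2, an exchange factor of mitochondrial HSP70, fell by 0.60 ± 0.12. Of 14 chaperones of the endoplasmic reticulum, 6 fell, 1 rose and 7 did not pass, with a median of -0.07. SDF2L1 fell by 1.47 ± 0.12 and CRELD2 fell by 0.90 ± 0.12, both genes induced by stress in that compartment, and SERPINH1, the collagen chaperone, fell by 1.26 ± 0.14. Of other genes induced by that stress, named after their values were seen, DNAJB9 rose by 0.72 ± 0.14, and HSPA5 and HSP90B1 had log2 changes of 0.11 ± 0.13 and 0.13 ± 0.13 that did not pass. The remaining falls of this list, also added after their values were seen, were DNAJB11 (-0.81 ± 0.12), CALR (-0.63 ± 0.12) and HYOU1 (-0.48 ± 0.12). After median centring 10 of the 14 were called lower, so the count for this list moved with the scaling. Of all 14337 genes, 4645 were called lower after median centring, against 2663 as deposited.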

How the data were processed

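A total of 4 arrays were analysed, 1 for each of 2 HCT116 lines in each of 2 cultures. The deposited values are MAS5 intensities, 1 column per array, made with MAS5 per the submitters' processing notes, and the sources used here give neither its settings nor a genome build. The trimmed mean, leaving out 2% at each end, was 500.1 on each array, so the arrays had been brought to a common level. Their number limits the precision.

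Signals were taken as log2(signal + 14.0), the 25th percentile, which understates the change of dim genes. Probe sets with a mean above the 40th percentile (log2 level 5.48) and annotated to 1 gene were kept, and the brightest stood for its gene. Of 54675 probe sets, 41091 were annotated to 1 gene, 1801 to several and 11721 to none. limma 3.58.1 in R 4.3.3 fitted culture and cell line with moderated variances (trend, 1 residual degree of freedom and 26.7 prior degrees of freedom), and p-values were adjusted by Benjamini and Hochberg over 14337 genes. The pairing comes from the cell line named in the labels. The fit was tested on simulated data in which 200 of 14337 genes changed. It recovered 66% of 2-fold and 95% of 4-fold changes, with 9 false calls. Changes under 2-fold were not simulated. In the arrays 49.2% of genes were called, so these rates may not hold for them. Alternatives changed scaling, pseudocount, filter, choice of probe sets, block, variance model and the arrays included. Promoter sequences came from RefSeq (GRCh38.p14). All 44 members could be named, and up to 4 genes with the largest changes in each other list. The members and lists were chosen with earlier results of these data known.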

Additional observations from a re-analysis of the deposited data

Results flagged for a closer look

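For 4 chaperone genes the array pairs of the cell lines moved in opposite directions. HSPH1 had a log2 change, spheroids minus monolayer, of -0.22 in HCT116 wt and 0.20 in HCT116 wt/GFP. HSP90AA1 had -0.09 in wt and 0.46 in wt/GFP. HSP90AB1 had -0.33 in wt and 0.010 in wt/GFP. HSF1 had -0.20 in wt and 0.35 in wt/GFP. With 1 array per line and culture, the difference between the lines was not tested, and none of these genes passed the limma test across the lines.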

How the results depend on the processing

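In the fit over the whole table, all genes called higher (4396) numbered 2354 under median centring, 992 under hybridisation-control scaling, 7195 for every probe set alone and 2653 with no trend. In the same fit, all genes called lower (2663) numbered 4645 under median centring, 1702 with no shared probe sets, 4361 for every probe set alone and 1176 with no trend. The count of chaperone genes called lower (22) was 12 with no trend and stayed within 1.5 times under the other alternatives. Such counts can include newly called genes. With no shared probe sets 15 of the 22 falls were kept, and CHORDC1, HSPA4 and PFDN4 lost their calls. CCT2, DNAJB1, HSPB1 and STIP1 had only shared probe sets and were not tested there. The mean of probe sets kept 17 falls and lost those of BAG1, BAG2, CCT4, DNAJC7 and PFDN4. Chaperone genes called higher (2) numbered 1 under quantile normalization and no shared probe sets, 6 for every probe set alone, and 0 under median centring, hybridisation-control scaling, no filter, no replicate block and no trend in limma. At an unadjusted p under 0.05 those 0 counts were 0, 0, 2, 2 and 1. Leaving out 1 array gave 0 to 1. HSP70 genes called higher (1) numbered 0 under quantile normalization, median centring, hybridisation-control scaling, no filter, no shared probe sets, no replicate block and no trend, and 0 to 1 with 1 array left out. HSP110 called lower (2) was 1 with no shared probe sets. HSP90 called lower (0) was 2 under quantile normalization, hybridisation-control scaling and every probe set alone, 1 under median centring and the mean of probe sets, and 0 to 1 with 1 array left out, as was HSP90 called higher (0 to 1). HSP90 cochaperones called lower (4) were 2 with no trend. Small HSP called higher (0) was 1 under the mean of probe sets, no shared probe sets and every probe set alone. Small HSP called lower (1) was 2 under median centring, hybridisation-control scaling, the filter at the 60th percentile and every probe set alone, 0 under no shared probe sets and no trend, and 1 to 2 with 1 array left out. J-domain called higher (0) was 1 for every probe set alone, and called lower (4) was 2 with no trend. BAG called higher (0) was 2 for every probe set alone, and called lower (2) was 0 under the mean of probe sets, 1 with no trend and 1 to 2 with 1 array left out. TRiC called lower (5) was 3 with no trend and 3 to 7 with 1 array left out. Prefoldin called higher (1) was 0 under median centring, hybridisation-control scaling, no filter, no shared probe sets, no replicate block, no trend and each array left out, and called lower (3) was 1 with no trend.

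The median change of the chaperone genes (-0.46) was -0.40 under quantile normalization, -0.85 under median centring, -1.05 under hybridisation-control scaling, -0.29 for the mean of probe sets, -0.52 with no shared probe sets, -0.42 for every probe set alone, -0.43 in HCT116 wt/GFP alone and -0.56 to -0.38 with 1 array left out. Among genes called in either fit, directions turned for HSPA2 (-0.053 under hybridisation-control scaling), HSP90AA1 (-0.20 under quantile normalization, -0.40 under hybridisation-control scaling), PFDN5 (-0.083 under median centring, -0.28 under hybridisation-control scaling), HSPB11 (0.33 for the mean of probe sets, 1.60 with no shared probe sets), DNAJC7 (0.31 for the mean) and BAG1 (0.077 for the mean). The sign also turned, with no call in either fit, under at least 1 alternative that kept all arrays for 6 genes: DNAJA2, DNAJB6, HSF1, HSP90AA1, HSPB8 and HSPH1. The cause was not tested. The pairing by cell line changed the calls of HSPA2, PFDN5 and PFDN4 among the chaperone genes, each lost without the block. Over all genes tested, the difference between the lines in monolayers had a correlation of 0.0068 with that in spheroids. The block thus had almost no shared line difference to remove. A fit without 1 array used culture alone and assumes that the lone array varies like the others. With 2 arrays per culture and 1 residual degree of freedom, the moderated variance rests mainly on the prior, and 10 of the 22 lower calls were lost with no trend.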
